A study of Mus musculus with 18 samples.

Results

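Small leucine-rich proteoglycans are secreted proteins whose curved, leucine-rich core binds collagen and growth factors in the matrix around cells. The genes described here are 8 members of this family, Dcn, Bgn, Aspn, Lum, Fmod, Prelp, Omd and Ogn. They were taken by symbol from the GENCODE M21 annotation of the mouse genome (GRCm38) and are 8 of the 50600 genes in the deposited tables. Decorin (Dcn) and biglycan (Bgn) carry chondroitin or dermatan sulfate chains, and asporin (Aspn) belongs to the same class but has no such chain. Lumican (Lum), fibromodulin (Fmod), Prelp and osteomodulin (Omd) form the class whose members can carry keratan sulfate, and osteoglycin (Ogn) belongs to another class. In muscle these proteins space collagen fibrils, and decorin and biglycan are known to bind transforming growth factor beta, while decorin also binds myostatin.

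The cells were C2C12, a mouse myoblast line that leaves the cell cycle and fuses into myotubes when growth factors are withdrawn. The series concerns muscle differentiation and a pair of kinases that bind each other, the atypical MAP kinase ERK3 (gene Mapk6) and MK5 (gene Mapkapk5). Per the labels there were 3 stable lines, transfected with a control plasmid (control), with px459-Mapk6sg (ERK3-depleted) or with px459-Mk5sg (MK5-depleted), where px459 is a plasmid for Cas9 and a guide RNA. Poly-A RNA of each line was sequenced with 3 libraries in growth medium (GM) and 3 after 2 days in differentiation medium (DM2), which makes 18 libraries in 6 groups. The labels say neither whether replicates were separate cultures or clones nor whether a line is 1 clone, so p-values measure only the spread between these libraries.

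The libraries held 17.5 to 23.4 M counted reads in genes (M, 1e6). Reads falling outside genes were 4.54 to 5.78% of all reads in control DM2 libraries, against 5.54 to 9.78% in ERK3-depleted and 4.62 to 7.0% in MK5-depleted DM2 libraries. Mapk6 stood at 150, 119 and 124 CPM (reads per 1e6 of a TMM-scaled library total) in control GM and at 115, 105 and 133 in ERK3-depleted GM, so these groups overlapped (log2 -0.15 ± 0.12, adjusted p = 0.464). At DM2 Mapk6 stood at 219, 207 and 204 CPM in control libraries and at 116, 96.8 and 136 CPM after ERK3 depletion, without overlap (log2 -0.85 ± 0.12, adjusted p = 2.18e-05). It was also lower in MK5-depleted DM2 cells, at 161, 153 and 163 CPM (log2 -0.40 ± 0.12, adjusted p = 0.0115), and MK5-depleted cells were not called against ERK3-depleted ones (log2 0.45 ± 0.12, adjusted p = 0.138). Mapkapk5 had only 11 to 32 uniquely counted reads in any library, so its counts are an uncertain check. Its length-corrected level (TPM, the share of transcripts by RSEM) was 52.8 to 59.4 in control GM and 30.9 to 35.7 in MK5-depleted GM, then 65.6 to 71.7 and 42.0 to 58.0 at DM2. Muscle markers identified the cells: 5 myoblast genes (Myod1, Myf5, Pax7, Des, Cdh15) summed to 1139 to 1324 CPM in control GM and 1862 to 2049 at DM2, and 6 myocyte genes rose from 31.7 to 55.8 CPM in sum in control GM to 1450 to 1730 at DM2. The myocyte sum ran from 730.3 to 1254 CPM in ERK3-depleted and from 848.3 to 1615 CPM in MK5-depleted DM2 libraries. The myoblast sum was higher in the depleted lines, at 1568 to 1764 CPM (ERK3) and 1470 to 1730 CPM (MK5) in GM and 2727 to 3136 CPM and 2528 to 2986 CPM at DM2. Des made up most of it, with GM means of 977 CPM in control, 1325 for ERK3 and 1234 for MK5. Myf5 and Pax7 were not called in GM in either line. By the test given below, Myod1, Des and Cdh15 were higher in GM in both lines. There 6.79% (ERK3) and 8.45% (MK5) of all genes were called in either direction. At DM2 Des and Pax7 were higher in both lines and Myf5 lower for ERK3. Of the 6 myocyte genes 2 were lower for ERK3 and 1 for MK5 at DM2. Of all genes 55.8% and 45.1% were called in either direction there. The response to DM2 was lower for 4 myocyte genes with ERK3 depletion and for 0 with MK5 depletion, beside 14.0% and 9.48% of all genes. The part of these markers in the results below was not tested.

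Of the 8 genes, 7 lie in tight clusters of the family. Aspn (chr13:49544443-49567565), Omd (chr13:49582462-49592822) and Ogn (chr13:49608046-49624501) follow each other on the plus strand, next to their relative Ecm2 (chr13:49504810-49532789), and these 4 genes span 120 kb. All 4 sit within the span of Cenpp, a centromere protein gene on the opposite strand (chr13:49464023-49652785). Prelp (chr1:133910304-133921414, minus strand) and Fmod (chr1:134037254-134048277, plus strand) lie in a 151 kb stretch with Optc. Dcn (chr10:97479609-97518143) and Lum (chr10:97565128-97572703) share a 203 kb stretch on the plus strand with Kera and Epyc. Bgn (chrX:73483602-73495933, plus strand) stands alone.

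At DM2 the chromosome 13 members Ogn, Omd and Aspn were all lower in both depleted lines by the test given below, and so was Prelp. For the chromosome 13 members, the 250 bases before their RefSeq starts (GRCm38.p6, plus strand) are shown, 5′ to 3′, with every E-box in capitals. An E-box (CANNTG, the same on both strands) is the kind of sequence that the muscle bHLH factors bind.
Ogn, chr13:49607765-49608014: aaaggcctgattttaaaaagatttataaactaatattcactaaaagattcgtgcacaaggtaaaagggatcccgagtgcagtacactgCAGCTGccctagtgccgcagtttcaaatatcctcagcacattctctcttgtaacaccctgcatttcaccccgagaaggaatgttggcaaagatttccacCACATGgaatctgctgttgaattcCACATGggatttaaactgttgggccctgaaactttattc
Omd, chr13:49582212-49582461: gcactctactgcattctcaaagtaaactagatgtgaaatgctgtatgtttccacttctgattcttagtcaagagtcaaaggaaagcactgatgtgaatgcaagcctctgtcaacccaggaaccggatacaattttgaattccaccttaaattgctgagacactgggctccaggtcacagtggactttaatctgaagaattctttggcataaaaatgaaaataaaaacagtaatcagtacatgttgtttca
Aspn, chr13:49544193-49544442: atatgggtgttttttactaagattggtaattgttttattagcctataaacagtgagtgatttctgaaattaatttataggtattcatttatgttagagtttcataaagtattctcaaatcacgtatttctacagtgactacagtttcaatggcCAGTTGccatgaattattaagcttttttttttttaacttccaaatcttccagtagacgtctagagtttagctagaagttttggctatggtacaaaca
The Ogn window holds 3 E-boxes, whose first bases lie at -162, -63 and -39 from the start. The Aspn window holds 1, at -97, and these letters are not in the Omd window. Of all 32536 RefSeq mouse windows of this length, 66.2% hold an E-box. TATAAA, searched on both strands, begins at -229 and -227 from the Ogn start and at -207 and -178 from the Aspn start, and 12.3% of windows hold it. GTAAACA or its reverse complement TGTTTAC, the FoxO motif, is in 3.17% of windows and in none of those of the 6 members with an entry (Bgn, Fmod, Prelp, Ogn, Omd and Aspn). A match or its absence is a description of the letters only.

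Between genes, levels were compared per transcript length, in TPM. Bgn and Ogn dominated the family in every group. In control GM, Bgn stood at 1804 ± 105.8 TPM (mean ± SD, n = 3 here and throughout) and Ogn at 1418 ± 176.8 TPM, which placed them at rank 91 and rank 121 of 21323 genes detected there. The other members were far lower, with Aspn at 54.2 ± 8.26, Omd at 33.7 ± 7.62, Fmod at 18.5 ± 2.43, Prelp at 14.4 ± 2.03 and Dcn at 8.51 ± 2.67 TPM. Dcn, an abundant proteoglycan of connective tissue in adult muscle, was thus the lowest of the 7 genes with more than a trace of reads in proliferating control cells. Lum was close to absent, at 0.0433 ± 0.0379 TPM. Bgn and Ogn together made up 96.15 ± 0.23% of the TPM of the 8 genes in control GM and 91.75 ± 1.58% at DM2.

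**Figure D1:**
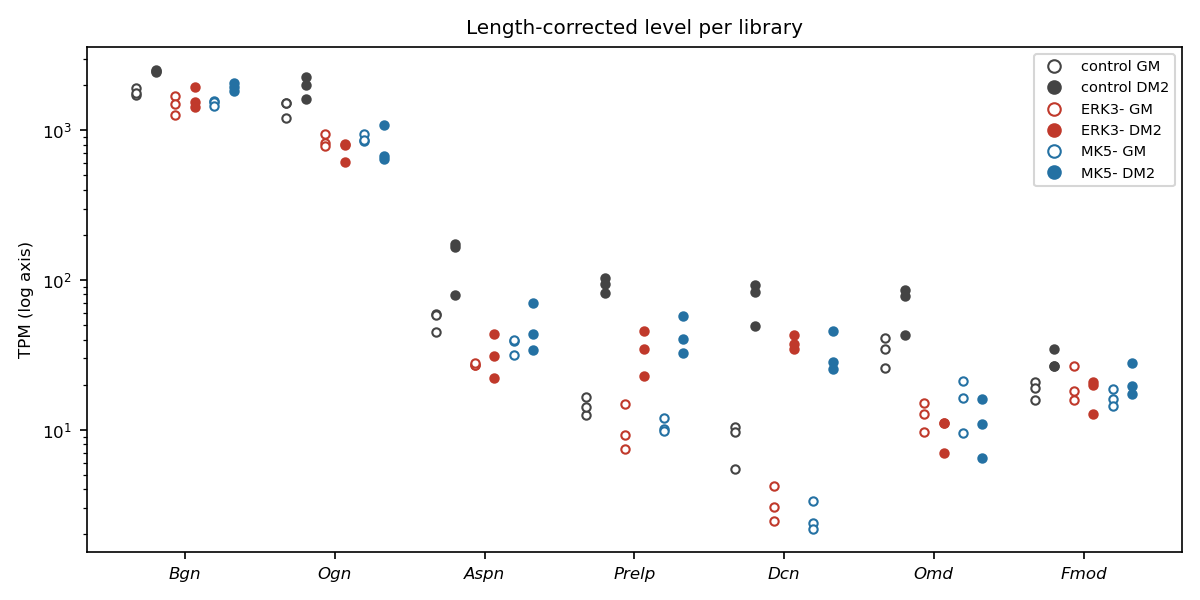
TPM (log axis) of 7 members in each of the 18 libraries, with GM as open and DM2 as filled points, for control (grey), ERK3-depleted (red) and MK5-depleted (blue) cells. Bgn and Ogn lie far above the other members in all libraries.

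The first comparison asked what the family does when control myoblasts differentiate. Over 2 days Dcn, Prelp, Aspn, Omd and Bgn rose, while no member fell. These are 5 of the 7 members tested (edgeR quasi-likelihood test, Benjamini-Hochberg adjusted p under 0.05, called from here on), where 22.5% of all 13939 genes tested were called higher and 45.6% in either direction. The median log2 fold change of the 7 members was 0.88, against -0.02 over all genes tested. Lum, the eighth member, had too few reads to be tested.

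Dcn changed most. Its control libraries held 7.09, 13.8 and 12.9 CPM in GM and 58.0, 108.5 and 99.1 CPM at DM2. All DM2 libraries lay above all GM libraries, and library 1 was the lowest of its group in both media. Dcn rose 7.81-fold (log2 2.97 ± 0.32, fold change ± standard error, adjusted p = 1.29e-06). In TPM, Dcn moved from 8.51 ± 2.67 to 74.8 ± 22.7, from the top 40.22% of detected genes to the top 10.96%. In bulk RNA like this, fewer cells of a type and less RNA per cell cannot be told apart, and this holds for each result below.

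Prelp, a heparin-binding member that can anchor basement membrane to connective tissue, also rose. It stood at 35.6, 45.7 and 39.4 CPM in control GM and at 203, 235.2 and 264.3 CPM at DM2. The groups were far apart, and the rise was 5.82-fold (log2 2.54 ± 0.24, adjusted p = 1.64e-07). Bgn, whose protein also binds the dystrophin-associated complex at the muscle surface, was already high. Its control GM libraries held 3034, 3577 and 3106 CPM and its DM2 libraries 3864, 4012 and 4121, a small but separate shift of 1.24-fold (log2 0.30 ± 0.09, adjusted p = 0.0133). The Bgn call was lost without control GM library 1 (adjusted p = 0.0559).

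In the chromosome 13 cluster, Aspn, which binds collagen and transforming growth factor beta, was the member with the largest rise. It went from 79.9, 111.3 and 103.7 CPM to 127.4, 264.2 and 282.7 CPM. The groups did not overlap, although DM2 library 1 lay far below the other two, and the rise was 2.28-fold (log2 1.19 ± 0.28, adjusted p = 0.00236). Omd, first described in bone matrix, stood at 30.6, 52.3 and 40.0 CPM in GM and 46.8, 93.4 and 86.6 CPM at DM2. These groups overlapped through DM2 library 1, and the rise of 1.84-fold (log2 0.88 ± 0.34, adjusted p = 0.0417) was lost without GM library 1 or 3, or DM2 library 2 or 3, with adjusted p up to 0.146. Ogn held 2418, 3187 and 2974 CPM in GM and 2873, 4012 and 3677 CPM at DM2, and its difference (log2 0.30 ± 0.19, adjusted p = 0.213) did not pass the test. Library 1 was the lowest control library in both media for Dcn, Bgn, Prelp, Ogn, Omd and Aspn alike, 6 of the 7 tested members. The share of all genes with this order was not counted, so it is not shown to be a trait of the family.

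Fmod, which binds collagen fibrils and lysyl oxidase, held 50.6, 40.9 and 45.8 CPM in control GM and 58.0, 58.0 and 77.9 CPM at DM2. The groups did not overlap, yet the difference did not pass the test (log2 0.50 ± 0.21, adjusted p = 0.0583). Lum had 0, 3 and 2 reads in control GM and 9, 27 and 11 at DM2. All its DM2 counts were the higher ones, at a depth where a few reads decide the value.

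**Figure D2:**
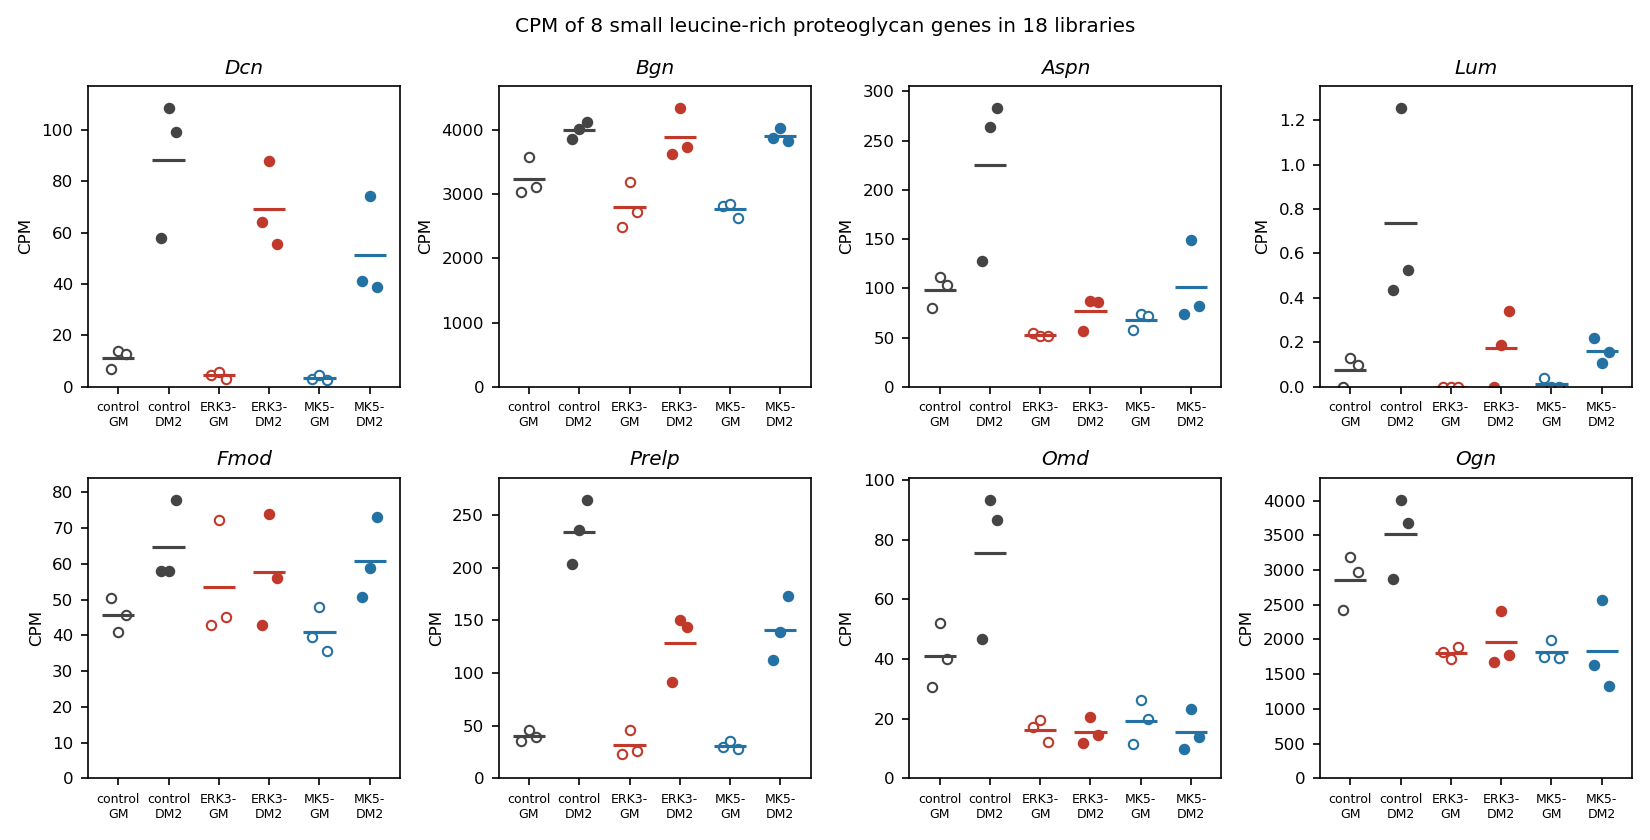
CPM of the 8 genes in each library (points, GM open and DM2 filled) with the group mean (bar), on linear axes from 0. Dcn and Prelp stand higher at DM2 in all 3 lines, and Omd and Ogn in both depleted lines lie below the control libraries of the same medium.

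In the depleted lines differentiation was compared in the same way. In ERK3-depleted cells 3 of the 7 tested members rose (Dcn, Prelp and Bgn) and none fell, where 28.9% of all genes were called higher and 55.1% in either direction. In MK5-depleted cells 4 rose (the same 3 and Fmod) and none fell, where 24.6% of genes were called higher and 49.3% in either direction. The members' median log2 fold change was 0.48 in ERK3-depleted and 0.57 in MK5-depleted cells, beside 0.01 and 0.00 over all genes. Members of the chromosome 13 cluster were not called in either line.

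Dcn rose in both depleted lines, from lower values in GM. In ERK3-depleted cells it went from 4.505, 5.84 and 3.23 CPM to 64.4, 88.1 and 55.5 CPM, a 15.2-fold rise (log2 3.93 ± 0.35, adjusted p = 2.16e-07). In MK5-depleted cells it went from 3.10, 4.46 and 2.79 CPM to 41.0, 74.1 and 38.8 CPM, a 14.8-fold rise (log2 3.89 ± 0.36, adjusted p = 2.95e-07). In both lines all DM2 libraries lay above all GM libraries. In the model of group means the difference of these responses from that of control cells was log2 0.96 ± 0.46 for ERK3 (adjusted p = 0.125) and 0.93 ± 0.47 for MK5 (adjusted p = 0.169), and neither passed the test.

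Prelp rose 4.04-fold in ERK3-depleted cells (log2 2.01 ± 0.24, adjusted p = 2.58e-06) and 4.53-fold in MK5-depleted cells (log2 2.18 ± 0.24, adjusted p = 1.20e-06). Bgn rose 1.39-fold (log2 0.48 ± 0.09, adjusted p = 0.00036) and 1.42-fold (log2 0.50 ± 0.09, adjusted p = 0.000313). These rises held in all 6 fits that left out a library of each line. Fmod rose 1.48-fold in MK5-depleted cells (log2 0.57 ± 0.21, adjusted p = 0.0319), a call lost without MK5-depleted GM library 1 or 3, or DM2 library 2 or 3, with adjusted p up to 0.164. In ERK3-depleted cells the difference of Fmod was log2 0.11 ± 0.21 (adjusted p = 0.679).

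For Aspn the depleted lines gave log2 0.54 ± 0.28 (ERK3, adjusted p = 0.116) and 0.58 ± 0.28 (MK5, adjusted p = 0.0977). With the replicate number as a block, which the samples of the ERK3-depleted line bear out, Aspn was called in that line (log2 0.52, adjusted p = 0.0433). The MK5 value was also called without MK5-depleted DM2 library 1 (log2 0.77, adjusted p = 0.0462). Omd gave log2 -0.07 ± 0.37 and -0.30 ± 0.36, and Ogn 0.11 ± 0.19 and 0.01 ± 0.19, in ERK3-depleted and MK5-depleted cells. The interval of the Ogn response spans -0.30 to 0.53 in ERK3-depleted cells and -0.40 to 0.43 in MK5-depleted cells (95%).

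The count of members whose response differed between a depleted line and control was 0 by edgeR, DESeq2 and limma-voom. It was not 0 in other fits. With the replicate number as a block in edgeR, Dcn and Omd were called for ERK3 (log2 0.96, adjusted p = 0.000481, and -0.93, adjusted p = 0.00304) and for MK5 (log2 0.89, adjusted p = 0.00131, and -1.18, adjusted p = 0.00178). The deviations of same-numbered GM and DM2 libraries from their group means correlated at only -0.02 to 0.17 in control cells. In MK5-depleted cells they correlated at -0.09 to 0.22. The samples of these lines thus do not bear out the pairing that the blocked calls assume. With no filter on low counts 5 members were called for ERK3 and 3 for MK5, and on log2(TPM + 1) 5 and 1. The fit with no filter called many more genes than the main model in a comparison given below, so its calls are not comparable with the others. Of all genes, 14.6% had a higher and 14.0% a lower response with ERK3 depletion, and 8.54% a higher and 9.48% a lower response with MK5 depletion. Only Omd for MK5 lay under 0.05 before adjustment in edgeR (log2 -1.19 ± 0.49, adjusted p = 0.102), and its value for ERK3 was -0.95 ± 0.50 (adjusted p = 0.160). Leaving out 1 library made a call in 2 cases, for Aspn without control DM2 library 1 (ERK3, log2 -0.94, adjusted p = 0.045) and for Omd without MK5-depleted DM2 library 2 (MK5, log2 -1.59, adjusted p = 0.0458).

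**Figure D3:**
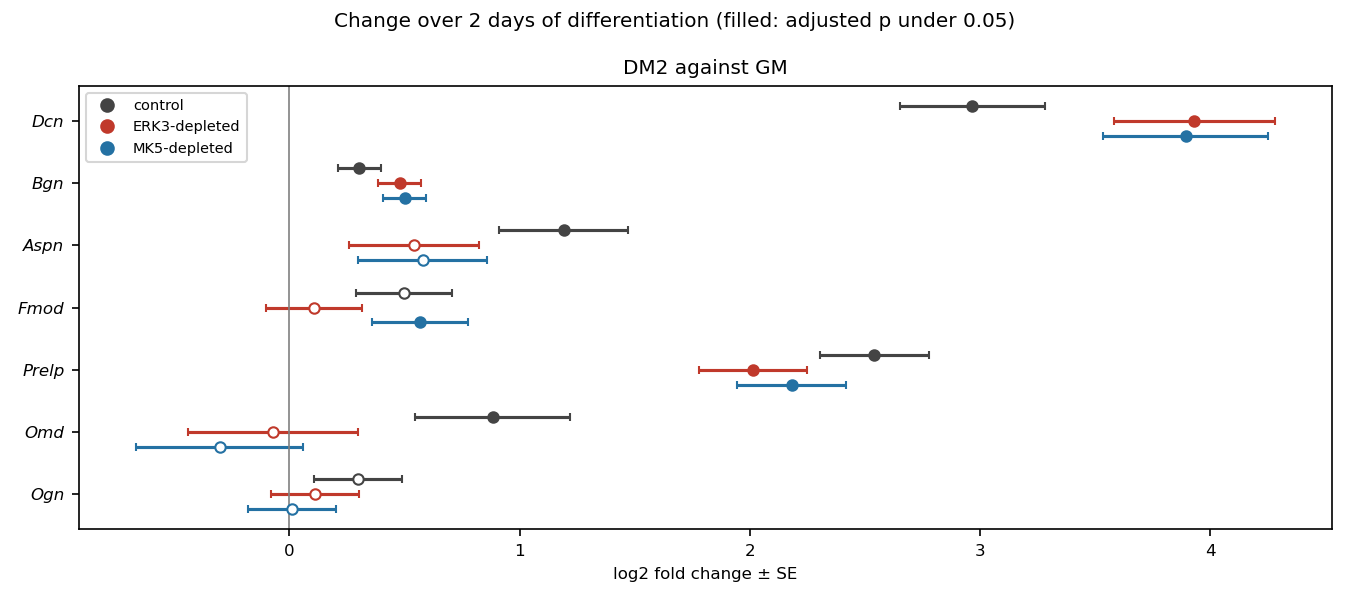
Log2 fold change from GM to DM2 (± standard error) of the 7 tested members in control (grey), ERK3-depleted (red) and MK5-depleted (blue) cells, with filled points where adjusted p is under 0.05. Dcn and Prelp lie between 2.01 and 3.93 in every line, and Omd lies above 0 in control cells alone.

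In growth medium, ERK3-depleted cells had less Dcn, Omd and Ogn RNA than control cells. These are 3 of the 7 tested members, none being higher, where 3.06% of all genes were called lower and 6.79% in either direction. The members' median log2 fold change was -0.66, against -0.01 over all genes. Omd libraries held 17.1, 19.6 and 12.2 CPM against 30.6, 52.3 and 40.0 in control, without overlap, a 2.51-fold lower level (log2 -1.33 ± 0.36, adjusted p = 0.036). Dcn, at the values given above, was 2.49-fold lower (log2 -1.32 ± 0.36, adjusted p = 0.0393). Ogn libraries held 1816, 1722 and 1889 CPM against 2418, 3187 and 2974, also apart, and were 1.58-fold lower (log2 -0.66 ± 0.19, adjusted p = 0.0467). Aspn libraries lay below all control libraries at 54.5, 52.1 and 51.2 CPM, with log2 -0.90 ± 0.28 and adjusted p = 0.0655, and were called with the replicate number as a block (log2 -0.87, adjusted p = 0.0128).

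Each of the 3 calls in ERK3-depleted GM cells was lost on leaving out any library but control 1, with adjusted p up to 0.182 for Dcn, 0.181 for Omd and 0.195 for Ogn. None of the 3 was called from the RSEM expected counts, with adjusted p of 0.05415 for Dcn, 0.052 for Omd and 0.0554 for Ogn. The fold changes themselves moved little, from -1.56 to -1.13 for Dcn, -1.5 to -1.12 for Omd and -0.77 to -0.58 for Ogn over the 6 fits without a library.

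MK5-depleted cells in growth medium had less Dcn and Ogn RNA than control cells, 2 of the 7 tested members, where 3.74% of all genes were called lower and 8.45% in either direction. The median log2 fold change of the members was -0.53, against -0.01 over all genes. Dcn, at 3.10, 4.46 and 2.79 CPM, was 3.28-fold lower (log2 -1.71 ± 0.37, adjusted p = 0.0128), and no library reached the lowest control value. Ogn held 1749, 1987 and 1733 CPM, again below all control libraries, and was 1.57-fold lower (log2 -0.65 ± 0.19, adjusted p = 0.0441). Omd held 11.6, 26.4 and 19.9 CPM and Aspn 57.8, 74.3 and 72.0 CPM. Both lay below all control libraries without passing the test, with log2 -1.09 ± 0.35 (adjusted p = 0.0643) and -0.53 ± 0.28 (adjusted p = 0.267). With the replicate number as a block 4 members were called lower in place of 2, adding Omd (log2 -1.12, adjusted p = 0.000889) and Bgn (log2 -0.22, adjusted p = 0.045).

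The Dcn call was lost without control GM library 2, MK5-depleted library 1 or MK5-depleted library 3 (adjusted p up to 0.0906). The Ogn call was lost on leaving out any library but control 1 (adjusted p up to 0.216). Omd was called without control library 1 (adjusted p = 0.0437) or without MK5-depleted library 2 (adjusted p = 0.0349).

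Fibroblast markers moved beside these results. Of 10 listed, 7 were tested, and Dpt, Pi16, Cd34 and Pdgfra were lower in GM in both depleted lines, with Dpt at log2 -1.73 (ERK3, adjusted p = 0.0189) and -2.16 (MK5, adjusted p = 0.00642). Of all genes, 3.06% (ERK3) and 3.74% (MK5) were called lower there. The summed level of the list was 444 to 541.3 CPM in control, 415 to 495.4 in ERK3-depleted and 360.5 to 433.1 in MK5-depleted GM libraries. Ly6a, not called in GM, made up most of this sum, with means of 302.9, 290.2 and 232.3 CPM in that order. Thy1, Clec3b and Col15a1 stayed under 1 CPM in every library, and no listed marker was at 0 in all of them. At DM2, 4 of the 7 were lower and 1 higher for ERK3 (median log2 -0.41), and 3 were lower and 1 higher for MK5 (median -0.38). Of all genes, 27.8% (ERK3) and 22.9% (MK5) were called lower at DM2, and 55.8% and 45.1% in either direction. Pdgfra (-0.71 and -0.91) and Cd34 (-0.41 and -0.43) were lower in both lines, Dpt (-1.07) and Fbln1 (-0.44) for ERK3 and Mfap5 (-0.55) for MK5. Ly6a was higher in both lines (0.63 and 0.53), and the list sums were 262.1 to 265.4, 259.6 to 276.6 and 235.2 to 246.3 CPM in control, ERK3-depleted and MK5-depleted cells. The part of these markers in the results on the proteoglycan genes was not tested. Endothelial and macrophage marker lists of 4 genes each summed to at most 1.37 and 2.73 CPM in any library.

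After 2 days of differentiation the chromosome 13 cluster stood clearly lower in both depleted lines. Against control DM2 cells, Omd, Aspn, Prelp and Ogn were lower in ERK3-depleted cells, and the same 4 and Dcn were lower in MK5-depleted cells. That is 4 of 7 tested members for ERK3, where 27.8% of all genes were called lower and 55.8% in either direction, and 5 of 7 for MK5, where 22.9% were called lower and 45.1% in either direction. No member was higher. The members' median log2 fold change was -0.85 for ERK3 and -0.79 for MK5, against 0.01 and 0.00 over all genes.

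Omd differed most. Control DM2 libraries held 46.8, 93.4 and 86.6 CPM, ERK3-depleted ones 11.7, 20.5 and 14.6 CPM and MK5-depleted ones 9.72, 23.3 and 13.7 CPM. All 6 depleted libraries lay under the lowest control library. Omd was 4.86-fold lower with ERK3 depletion (log2 -2.28 ± 0.36, adjusted p = 8.71e-05) and 4.85-fold lower with MK5 depletion (log2 -2.28 ± 0.36, adjusted p = 0.000189).

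Aspn held 127.4, 264.2 and 282.7 CPM in control and 56.3, 87.0 and 86.4 CPM in ERK3-depleted libraries. These groups were apart, and Aspn was 2.94-fold lower (log2 -1.55 ± 0.28, adjusted p = 0.000264). In MK5-depleted libraries it held 74.0, 148.9 and 81.9 CPM, where library 2 overlapped the lowest control library. The difference there was 2.21-fold (log2 -1.15 ± 0.28, adjusted p = 0.00366).

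Ogn, the most abundant member of the cluster, held 2873, 4012 and 3677 CPM in control and 1682, 2410 and 1777 CPM in ERK3-depleted libraries. It was 1.80-fold lower without overlap (log2 -0.85 ± 0.19, adjusted p = 0.00128). MK5-depleted libraries held 1629, 2566 and 1323 CPM, all under the lowest control library, and the difference was 1.91-fold (log2 -0.94 ± 0.19, adjusted p = 0.000953). Replicate 2 was the highest library in each depleted DM2 group for Omd, Aspn and Ogn. For Aspn with ERK3 depletion it was nearly level with replicate 3 (87.0 and 86.4 CPM). Replicate 2 also had the most reads outside genes in both groups (9.78% for ERK3 and 7.0% for MK5). The share of all genes with this order was not counted.

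The calls of Omd, Aspn and Ogn at DM2 held in each of the 6 fits without a library, in both lines. Without the 4 depleted DM2 libraries that have the most reads outside genes, a setting chosen after seeing the data, 1 library is left in each depleted DM2 group, and the spread comes from the other groups, so that library is assumed to vary as they do. The log2 values were then -2.38 (Omd), -1.38 (Aspn) and -0.99 (Ogn) for ERK3 and -2.45, -1.44 and -1.40 for MK5. With a covariate for reads outside genes, log2 was -2.525 (Omd), -1.59 (Aspn) and -1.15 (Ogn) for ERK3, all called. The MK5 call of Aspn was lost in a model of the control and MK5-depleted DM2 libraries alone (log2 -1.13, adjusted p = 0.0627).

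In addition to the fibroblast markers given above, a few markers of other cell types were called higher at DM2 in the depleted lines than in control. Beside them, 55.8% (ERK3) and 45.1% (MK5) of all genes were called in either direction at DM2. Of 5 tendon markers 3 were tested. Scx, a tendon transcription factor, was higher in both lines (log2 0.67 with ERK3 depletion and 0.47 with MK5 depletion), and Egr1 and Mkx were not called. The list sums were 361.8 to 408.1 CPM in control, 446 to 463.9 CPM with ERK3 depletion and 423.4 to 477.4 CPM with MK5 depletion. Of 8 cartilage and bone markers 2 were tested. Sox9, a cartilage transcription factor, was higher in both lines (log2 1.29 and 0.63), and Runx2, a bone transcription factor, with ERK3 depletion (log2 0.33). The list sums were 85.9 to 91.3, 125.3 to 190.4 and 90.5 to 130.2 CPM in that order, and the other 6 genes, Acan, Col2a1 and Ibsp among them, stayed under 1 CPM in all libraries, with Ibsp at 0 in all. Of 5 pericyte and smooth muscle markers 1 was tested, Cspg4, which was higher in both lines (log2 1.21 and 1.42), with list sums of 25.4 to 29.2, 58.9 to 63.7 and 61.4 to 82.6 CPM. Of 4 macrophage markers 2 were tested, and 2 were higher for ERK3 and 1 for MK5. Their list sums were 0.77 to 1.21 CPM in control, 1.66 to 2.73 with ERK3 depletion and 1.47 to 2.51 with MK5 depletion. The part of these markers in the results was not tested.

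The size of the Ogn difference can also be read without scaling between libraries, as its TPM over that of Bgn in the same library. This ratio was 0.785 ± 0.074 in control GM and 0.789 ± 0.122 in control DM2. It was 0.580 ± 0.101 and 0.454 ± 0.053 in ERK3-depleted GM and DM2, and 0.585 ± 0.036 and 0.412 ± 0.129 in MK5-depleted GM and DM2. The highest ratio in a depleted library, 0.651, lay below the lowest in a control library, 0.662. A ratio within a library shows unequal change of the 2 genes only.

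Prelp held 203, 235.2 and 264.3 CPM in control DM2 libraries, 91.2, 149.8 and 143.6 CPM with ERK3 depletion and 112.2, 138.4 and 172.8 CPM with MK5 depletion. The depleted libraries all lay under the control ones, and Prelp was 1.83-fold lower for ERK3 (log2 -0.87 ± 0.22, adjusted p = 0.00324) and 1.66-fold lower for MK5 (log2 -0.73 ± 0.22, adjusted p = 0.0131). The ERK3 call was lost with a covariate for reads outside genes (log2 -0.83, adjusted p = 0.0626), and the MK5 call without control DM2 library 3 (adjusted p = 0.0516) or MK5-depleted library 1 (adjusted p = 0.0767). Both were lost without the 4 libraries with the most such reads (adjusted p = 0.105 and 0.301).

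Dcn at DM2 overlapped between lines. MK5-depleted cells were 1.72-fold lower (log2 -0.79 ± 0.29, adjusted p = 0.0338), a call lost without control library 2 or 3 or MK5-depleted library 1 or 3 (adjusted p up to 0.133). ERK3-depleted cells gave log2 -0.35 ± 0.28 (adjusted p = 0.301).

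Bgn and Fmod were not called between a depleted line and control in either medium in the edgeR model of group means. With the replicate number as a block Bgn was called lower for MK5 in GM, as given above. Bgn held 3626, 4339 and 3729 CPM in ERK3-depleted and 3874, 4030 and 3831 CPM in MK5-depleted DM2 libraries, beside 3864, 4012 and 4121 in control. The 95% interval of its log2 difference at DM2 was -0.24 to 0.17 for ERK3 and -0.24 to 0.17 for MK5, and no difference passed the test. For Fmod the interval was wider, from -0.62 to 0.28 for ERK3 and from -0.54 to 0.36 for MK5. Deposited TPM are not scaled between libraries, and on log2(TPM + 1) the median of all genes itself moved by -0.46 for ERK3 and -0.29 for MK5 at DM2. On that scale Bgn read -0.61 for ERK3 (limma adjusted p = 0.000129) and -0.36 for MK5 (adjusted p = 0.0113), and Fmod -0.72 for ERK3 (adjusted p = 0.00762), all called lower beside that shift of all genes. Omd read -2.67 and -2.54.

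Lum had 0, 3 and 6 reads in ERK3-depleted and 4, 2 and 3 reads in MK5-depleted DM2 libraries, beside 9, 27 and 11 in control. All depleted libraries were under the lowest control one. In GM it had 0 reads in each ERK3-depleted library and 1, 0 and 0 in MK5-depleted ones. Its level was under the filter of the test, and in an edgeR fit with no filter Lum was lower at DM2 for ERK3 (log2 -2.08 ± 0.64, adjusted p = 0.00492) and for MK5 (log2 -2.16 ± 0.63, adjusted p = 0.00425). That fit also called many genes between the depleted lines, given below, where the main model called 0%. Its p-values are therefore not comparable with the others, and these Lum values rest on a few reads.

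**Figure D4:**
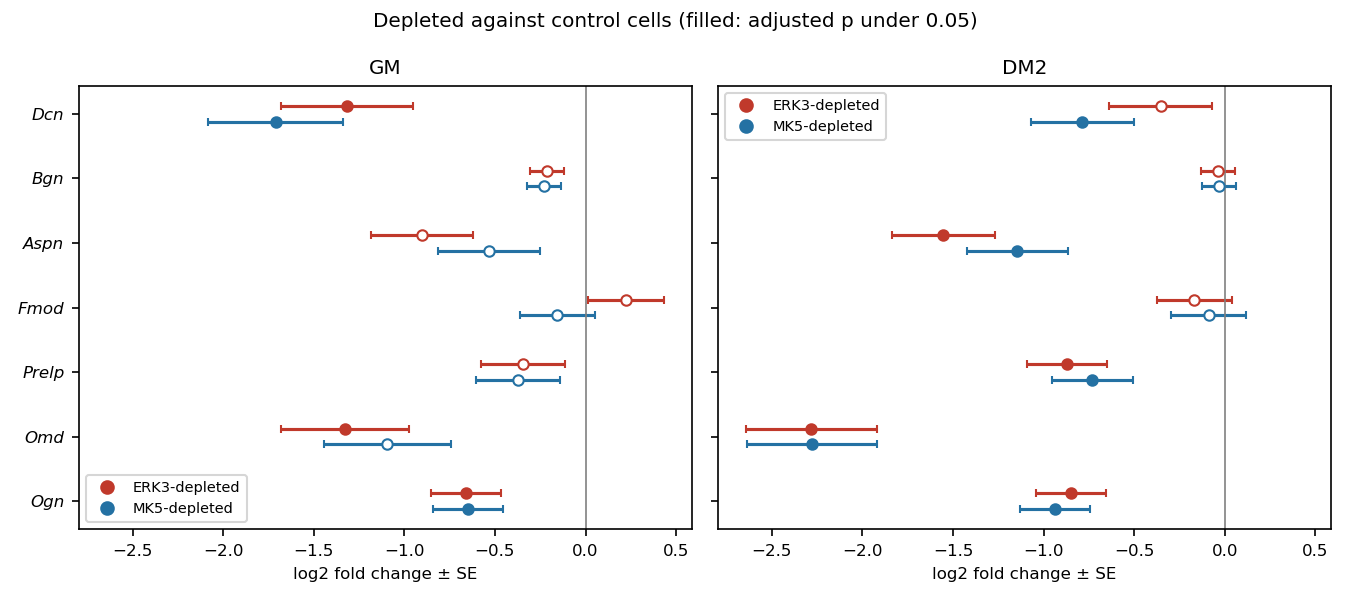
Log2 fold change (± standard error) of the 7 tested members in ERK3-depleted (red) and MK5-depleted (blue) cells against control, in GM (left) and at DM2 (right), with filled points where adjusted p is under 0.05. At DM2 Omd lies at -2.28 in both lines, and Bgn lies within 0.04 of 0.

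The depleted lines were also set against each other. No member was called between MK5-depleted and ERK3-depleted cells in either medium, and 0% of all genes were called by edgeR. By unadjusted p under 0.05 there were 1167 genes in GM and 2741 at DM2. DESeq2 called 10 genes in GM and 204 at DM2, and limma-voom called 0 and 2, with no member among them. In the edgeR fit with no filter on low counts 2 members were called at DM2, Dcn lower (log2 -0.41, adjusted p = 0.0119) and Aspn higher (log2 0.43, adjusted p = 0.00279) in MK5-depleted cells. That fit called 1331 genes in all, where the main model called 0. Its log2 values for these 2 members are near those of the main model, so the calls come from its smaller p-values, which are not comparable with the others. The widest member differences were those of Dcn, log2 -0.39 ± 0.41 in GM and -0.43 ± 0.29 at DM2, and of Aspn, 0.37 ± 0.28 and 0.41 ± 0.28. The comparisons of each depleted line with control share their control libraries, so the likeness of their values is not independent.

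Across groups, each gene's levels can be put in order of mean CPM. For Dcn, control DM2 led, followed by ERK3-depleted and MK5-depleted DM2, whose libraries overlapped with their neighbours in that order. Control GM lay apart below these, and the depleted GM groups, which overlapped each other, lay apart below control GM. For Omd and Ogn both control groups led and overlapped each other, and the 4 depleted groups lay lower and overlapped in sequence. For Aspn neighbouring groups overlapped throughout, except that ERK3-depleted GM lay apart at the bottom. Bgn and Prelp separated by medium, with all DM2 groups above all GM groups, and for Prelp control DM2 stood apart at the top. For Fmod each group overlapped the next.

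Over the 18 libraries, log2 CPM of the cluster genes varied together, with Pearson r of 0.924 for Ogn and Omd, 0.843 for Omd and Aspn and 0.833 for Ogn and Aspn. Dcn, Bgn and Prelp formed another group, with r of 0.950 for Dcn and Prelp, 0.948 for Dcn and Bgn and 0.932 for Bgn and Prelp. Between these groups r was lower, from 0.316 for Bgn and Omd to 0.702 for Prelp and Aspn. Aspn stood between the groups, with r of 0.665 with Dcn and 0.634 with Bgn. The libraries share 6 groups, so these values describe the pattern of the groups as much as single libraries. Among all genes with a regular symbol, the nearest pattern to Dcn was that of Sdc2 (r = 0.992), then Cilp (0.981) and Zfp36l1 (0.980). Prelp was nearest to Tgfb3 (0.985), with Nr4a1 (0.984) and Pdzrn3 (0.983) almost level. Bgn was nearest to Tmem127 (0.972), Ogn to Slc25a17 (0.944), Omd to Tmem106b (0.926), Aspn to Herpud2 (0.917) and Fmod to Flicr (0.816). Sdc2 encodes the heparan sulfate proteoglycan syndecan-2, and Tgfb3 a ligand of the transforming growth factor beta family. Each nearest gene is the highest of many correlations, and a link between it and the member was not tested.

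Of 10 relatives of the family, 6 were tested. Ecm2, the fourth gene of the chromosome 13 cluster, followed its neighbours, with 12.95 ± 0.93 CPM in control GM and 20.0 ± 2.65 at DM2. ERK3-depleted cells had 8.20 ± 1.21 and 8.78 ± 0.75 CPM, and MK5-depleted cells 8.29 ± 1.46 and 9.31 ± 1.13 CPM. Ecm2 was lower in GM for ERK3 (log2 -0.66 ± 0.15, adjusted p = 0.0184) and MK5 (log2 -0.64 ± 0.15, adjusted p = 0.0147). At DM2 it was lower by more, at -1.19 ± 0.15 for ERK3 (adjusted p = 7.82e-06) and -1.10 ± 0.14 for MK5 (adjusted p = 3.20e-05). Cenpp, read from the other strand of the same stretch, was higher at DM2, with log2 0.99 ± 0.18 for ERK3 (adjusted p = 0.000246) and 1.28 ± 0.18 for MK5 (adjusted p = 6.31e-05). Reads on the strand opposite to the gene were at most 3.83% of the stranded reads of Ogn, Omd or Aspn in any library.

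Among the other relatives, Optc, next to Prelp on chromosome 1, was higher at DM2 in both lines (log2 0.62 ± 0.19 and 0.60 ± 0.19), and Chadl and Podnl1 were higher for ERK3. Tsku was lower in MK5-depleted cells in both media. That makes 3 relatives higher and 1 lower for ERK3 at DM2 and 1 higher and 2 lower for MK5, with medians of 0.04 and -0.20, where 55.8% and 45.1% of all genes were called in either direction. Kera and Chad had 0 reads in all 18 libraries and Epyc 1 read in all.

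The enzymes that build the sugar chains were followed as well. Of 16 listed enzymes of chondroitin and dermatan sulfate, 15 were tested, and at DM2 10 were lower and 0 higher in ERK3-depleted cells, where 27.8% of all genes were called lower, and 7 lower and 0 higher in MK5-depleted cells, where 22.9% were. Their median log2 fold change was -0.49 and -0.40. In GM 0 were called for ERK3 and 1, Chst12, was lower for MK5, with medians of -0.07 and -0.13. Dse and Dsel, the epimerases that turn chondroitin into dermatan sulfate, were among the lower ones. Dsel went from 41.1 ± 4.58 CPM in control DM2 to 19.5 ± 4.62 in ERK3-depleted and 20.3 ± 4.22 in MK5-depleted cells (log2 -1.07 ± 0.17, adjusted p = 5.85e-05, and -1.02 ± 0.17, adjusted p = 0.000189). Ust, a uronyl sulfotransferase, gave -0.89 and -0.69, Chst11, a chondroitin sulfotransferase, -0.87 and -0.79, and Csgalnact2, which starts the chain, -0.78 and -0.70, all called. In control cells 4 of the 15 rose and 3 fell on differentiation, near the share of all genes called, 22.5% higher and 45.6% in either direction.

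**Figure D5:**
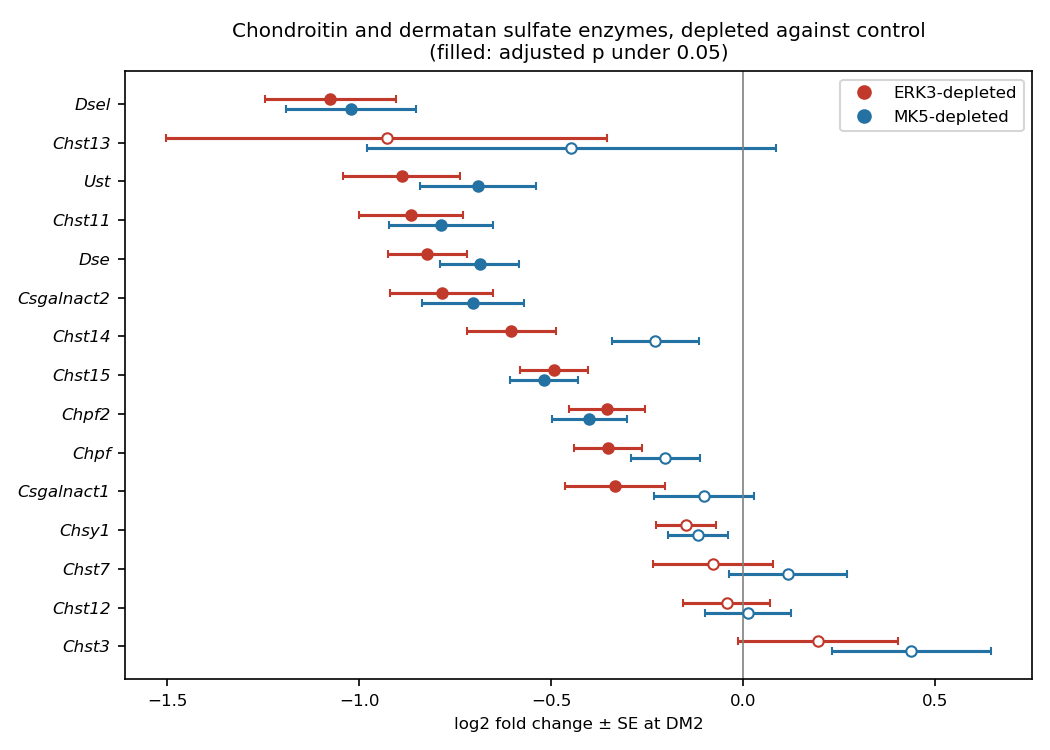
Log2 fold change at DM2 (± standard error) of the 15 tested chondroitin and dermatan sulfate enzymes in ERK3-depleted (red) and MK5-depleted (blue) cells against control, ordered by the ERK3 value, with filled points where adjusted p is under 0.05. All filled points lie left of 0, and Dsel lies lowest, at -1.07 and -1.02.

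Of 6 tested enzymes that attach the chain to the core protein, 3 were higher and 2 lower for ERK3 at DM2, and 2 were higher and 2 lower for MK5, beside 55.8% and 45.1% of all genes called in either direction. Fam20b, the xylose kinase of the linker (log2 -0.80 and -0.55), and Pxylp1, the phosphatase that acts on the same xylose (-0.86 and -0.63), were lower in both lines, and B3gat3 (0.61 and 0.33) and B4galt7 (0.49 and 0.36) were higher in both. Of 4 tested keratan sulfate enzymes, B4galt1 and B4galt4 were lower in both lines and Chst2 was higher for MK5.

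Of 10 tested fibrillar collagens, the partners that the proteins bind, 2 were higher (Col1a1 and Col27a1) and 4 lower (Col3a1, Col5a2, Col11a1 and Col24a1) at DM2 in each depleted line. These 6 of 10 are near the share of all genes called in either direction, 55.8% for ERK3 and 45.1% for MK5. Col1a1 was named after its values were seen. The medians were -0.05 for ERK3 and -0.16 for MK5. Col3a1 stood at 6623 ± 880 CPM in control DM2, 3780 ± 628 in ERK3-depleted and 4697 ± 656 in MK5-depleted cells (log2 -0.81 and -0.50). Col1a1 stood at 1251 ± 153, 1844 ± 72.4 and 1723 ± 282 CPM (log2 0.56 and 0.46). In GM 0 of the 10 were called in either line.

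Of 16 tested ligands and receptors of the family, 8 were lower and 4 higher for ERK3 at DM2, and 7 lower and 3 higher for MK5, with medians of -0.17 and -0.21. Of all genes, 27.8% and 22.9% were called lower and 55.8% and 45.1% in either direction. Tlr4 and Tlr2, the innate receptors that soluble biglycan and decorin engage, were lower in both lines (Tlr4 -0.98 and -1.12, Tlr2 -0.88 and -0.90). Tgfbr3, a receptor for the growth factor that decorin, biglycan and asporin bind, was lower as well (-0.69 and -0.89). Lrp1, an endocytic receptor for decorin, was higher in both (1.01 and 1.02), and so was Igf1r, the insulin-like growth factor receptor (0.93 and 0.44). Acvr2b, a myostatin receptor, was higher for ERK3 (0.96), at low levels of 1.39 ± 0.37 CPM in control and 2.71 ± 0.92 with ERK3 depletion. Mstn, the myostatin gene, had 0 reads in all 18 libraries. The other higher genes, named after their values were seen, were Tgfb2 for ERK3 (0.35) and Ccn2 for MK5 (0.80). Of 10 tested proteases and procollagen enhancers that act on the family, 5 were lower and 1 higher for ERK3 and 3 lower and 0 higher for MK5, among them Adamts1 (-0.90 and -0.49) lower in both.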

How the data were processed

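The authors' deposited counts are whole numbers of uniquely mapped reads per gene, and per the submitters' processing notes the tools were bcl2fastq 2.17 and STAR 2.5.1b, with GRCm38 as the build. The reverse-strand column was used, which held 92.8 to 95.3% of stranded gene counts. The authors also deposited RSEM 1.2.28 expected counts, rounded here before testing, and TPM. The annotation release is not given in the sources used here. GENCODE M21 gave symbols to 50376 of 50600 gene identifiers. Summary lines (21.7 to 35.8% of reads) stayed out.

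Genes were kept by edgeR's filterByExpr (13939 left), scaled by TMM and fitted with edgeR 4.0.16 in R 4.3.3 in 1 quasi-likelihood model of 6 group means (residual degrees of freedom 12), with 11 contrasts and Benjamini-Hochberg adjustment over all genes within each. The threshold for a call is an adjusted p of 0.05. The standard error is the log2 fold change over the square root of F, and the prior count for log2 CPM is 2. The test was run on counts simulated for ERK3-depleted against control in GM, with the same spread for every gene. It recovered 72 of 100 genes changed 1.5-fold and 100 of 100 changed 2-fold, with 7 false calls. It does not show the recovery for members whose spread is wider. CPM are computed here, and list values are counts of calls and medians.

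All 8 members are named. Other lists are given by counts and up to 4 called genes with the largest changes per comparison, and relatives by count. Genes named outside this rule are those of small counts and a few markers. The members and lists were chosen with earlier results of these data known. Promoters and motifs were read from RefSeq, where 6 of 8 members matched. Within each group, no library was a copy of another (squared difference over counting variance 7.39 to 79.8).

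Alternatives were RLE factors, DESeq2 1.42.0, limma-voom (limma 3.58.1), limma-trend on log2(TPM + 1), RSEM counts, unstranded counts, no filter, a filter of 1 CPM, length and GC offsets (splines with 5 degrees of freedom), a covariate for reads outside genes, the libraries of the contrast alone, the replicate number as a block, an adjusted p under 0.01, each library left out, and, added after seeing the data, 4 DM2 libraries left out. Replicate numbers were checked by the correlation of same-numbered libraries' deviations from their group means. Every pair was above 0.1 for ERK3-depleted and control in GM (0.155 to 0.290) and at DM2 (0.108 to 0.205), for MK5-depleted and control in GM (0.142 to 0.190), for GM and DM2 of the ERK3-depleted line (0.156 to 0.291), and for the depleted lines at DM2 (0.281 to 0.498). Not every pair was above 0.1 for GM and DM2 of the control line (-0.0209 to 0.172) and of the MK5-depleted line (-0.0917 to 0.222). The same holds for MK5-depleted and control at DM2 (0.0553 to 0.165) and for the depleted lines in GM (0.0704 to 0.344). The pairing comes from the data and the sample titles.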

Additional observations from a re-analysis of the deposited data

Results flagged for a closer look

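In 2 relatives of the family, the response to differentiation differed between a depleted line and control by the test of that difference (edgeR). The response of Optc was higher by log2 0.80 in ERK3-depleted and by 0.94 in MK5-depleted cells, with control at 4.81 ± 0.31 CPM in GM and 3.72 ± 0.47 at DM2 (mean ± SD, n = 3). The response of Chadl was higher by log2 0.83 in ERK3-depleted cells.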

How the results depend on the processing

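Between control and depleted cells at DM2, the calls of Ogn, Omd and Aspn held under every alternative, except Aspn for MK5 with only the libraries of the comparison. The number of members called changed by over 1.5 times as follows, beside the numbers in the text. With no filter, which admits Lum, it was 8 for the control response, 5 for the ERK3 response, 5 in GM for each depleted line, 2 between the depleted lines at DM2, and 5 (ERK3) and 3 (MK5) for the response differences. Adjusted p-values of that fit are not comparable with those of the main model, as given above. At an adjusted p under 0.01 it was 3 for the control response, 0 in GM for each line and 3 for MK5 at DM2. RSEM counts gave 0 (ERK3) and 1 (MK5) in GM. Length and GC offsets gave 1 for ERK3 in GM. On log2(TPM + 1) it was 0 (ERK3) and 1 (MK5) in GM, 7 for ERK3 at DM2, and 5 (ERK3) and 1 (MK5) for the response differences. With only the libraries of the comparison it was 4 for MK5 in GM and 3 at DM2. The replicate block gave 4 for MK5 in GM and 2 for each response difference, and changed no call of a member lower at DM2. Without the 4 DM2 libraries it was 1 for the MK5 response difference. Leaving out 1 library gave 3 to 5 for the control response, 0 to 3 for ERK3 in GM, 0 to 3 for MK5 in GM, 3 to 5 for MK5 at DM2 and 0 to 1 for each response difference. The cause was not tested.

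Values that changed sign belong to members that were not called. The response of Ogn to DM2 in ERK3-depleted cells was -0.18 with the covariate, -0.20 on log2(TPM + 1) and -0.027 without the 4 libraries. In MK5-depleted cells it was -0.000554 with no filter, -0.19 with the covariate, -0.041 with the block, -0.041 with voom, -0.19 on log2(TPM + 1) and -0.44 without the 4 libraries. Fmod gave -0.17 in the ERK3 response on log2(TPM + 1) and 0.19 for MK5 at DM2 without the 4 libraries, Bgn 0.0028 for ERK3 at DM2 with length and GC offsets, and Aspn -0.061 between the depleted lines at DM2 without the 4 libraries. With 1 library left out, the ERK3 response ran from -0.12 to 0.39 for Fmod, -0.076 to 0.22 for Ogn and -0.32 to 0.11 for Omd, and the MK5 response from -0.30 to 0.18 for Ogn and -0.70 to 0.0013 for Omd. Fmod ran from -0.056 to 0.35 for ERK3 in GM, -0.39 to 0.0098 for ERK3 at DM2 and -0.25 to 0.069 for MK5 at DM2, and Bgn from -0.13 to 0.016 for ERK3 at DM2.

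With 3 libraries a group, differences in GM lie near the threshold, and the level of Lum rests on 0 to 27 reads a library.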

Other observations

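Of 13 other proteoglycans tested at DM2, 2 were higher and 3 lower with ERK3 depletion and 3 higher and 4 lower with MK5 depletion. Of all genes, 55.8% and 45.1% were called in either direction there. Perlecan (Hspg2), a basement membrane proteoglycan, stood at 463 ± 22.7 CPM in control, 1243 ± 137 with ERK3 depletion and 1149 ± 62.6 with MK5 depletion (mean ± SD, n = 3), which is log2 1.43 and 1.31 higher (edgeR adjusted p = 3.95e-06 and 9.49e-06). Spock2 stood at 117.2 ± 1.85, 74.3 ± 8.18 and 66.4 ± 3.84 CPM and was lower in both lines (log2 -0.66 and -0.82).

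Of 9 tested matrix proteins that bind collagen or the proteoglycans, 3 were higher and 4 lower with ERK3 depletion at DM2, and 3 higher and 3 lower with MK5 depletion, beside the same 55.8% and 45.1% of all genes. Fibronectin (Fn1) stood at 3479 ± 552 CPM in control, 6376 ± 711 with ERK3 depletion and 6531 ± 184 with MK5 depletion (log2 0.87 and 0.91). Thrombospondin 1 (Thbs1) went the other way, at 4092 ± 309, 1823 ± 446 and 2195 ± 336 CPM (log2 -1.17 and -0.90).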
